A study of Mus musculus with 23 samples.

Results

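Angptl4, the gene for angiopoietin-like 4, was followed across 5 plasticizer-related compounds in TM4 cells, a Sertoli cell line established from mouse testis. It was selected on its differences between the compounds and DMSO in earlier results of these same arrays, so its levels and differences are given as a description, with no test. Probes were matched to genes by the RefSeq transcript written beside them on the array, and 1 of the 20145 genes named in this way is Angptl4. It had 1 of the 55681 non-control probes, printed once per array.

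Each compound was given at 100 μM for 48 hr in a 1% DMSO vehicle, and the control cells received the vehicle alone. MEHP is mono(2-ethylhexyl) phthalate, the monoester metabolite of the phthalate plasticizer DEHP. DINCH is a diisononyl ester of cyclohexane dicarboxylic acid, sold as a phthalate replacement. DOM is dioctyl maleate and DOS is dioctyl succinate, which differ in that the acid core of DOM holds a double bond and that of DOS does not. BDB is a dibenzoate ester of butanediol. DOS had 3 arrays, replicates 1, 3 and 4, and each of the other groups had 4, replicates 1 to 4. Each array carried RNA of 1 sample in 1 colour. The replicates are described by the study as biological, all of 1 cell line, and every p-value below measures the spread between these samples only.

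ANGPTL4 is a secreted protein that inhibits lipoprotein lipase, the enzyme that releases fatty acids from circulating triglyceride. It is best known from adipose tissue, liver, muscle and intestine, where fasting and fatty acids raise its mRNA. The gene is a classical target of the peroxisome proliferator-activated receptors (PPARs), nuclear receptors activated by fatty acids and by phthalate monoesters, and it is also induced through hypoxia-inducible factors and the glucocorticoid receptor.

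All levels below are the log2 of the processed array signal minus the 75th percentile of that array, so that 1 unit is a doubling and 0 is the signal of the 75th percentile. The 75th percentile of the processed signal was 204.6 to 350.7 on the 23 arrays, 43.4% to 52.2% of spots were well above background, and no spot was saturated. The arrays lay on 3 slides, and MEHP, BDB and DINCH occupied other slide rows than DMSO, so that in their comparisons with DMSO the row and the treatment cannot be told apart. Of 19 Sertoli cell markers, 10 were well above background on all 4 DMSO arrays, among them Sox9, Gata4, Inha, Kitl and Dmrt1, whereas Wt1, Fshr, Cldn11 and Gata1 were above it on none of the 23 arrays. Of markers of other cells, 3 of 5 myoid markers (Acta2, Cnn1 and Tagln), 3 of 7 germ cell markers (Prm1, Prm2 and Tnp1), 3 of 7 macrophage and endothelial markers (Csf1r, Pecam1 and Kdr) and 1 of 6 Leydig cell markers (Cyp17a1) were above background on all 4 DMSO arrays. Of these, Cnn1 was called lower with DOM than with DMSO (-1.21), DINCH (-1.55) or DOS (-2.02), Tagln lower with DOM than with DOS (-0.89), Acta2 lower with MEHP than with DINCH (-0.76) and Cyp17a1 lower with DOM than with DINCH (-0.65). Of 10 Sertoli markers tested, 2 were called higher with DINCH, and 2 higher and 1 lower with DOM. In DOM against DINCH 2 of 8 were higher and 2 lower, and in DOM against DOS 2 of 11 were higher and 3 lower. Of all genes tested, 8.26% were called with DINCH and 20.5% with DOM. The share was 23.3% in DOM against DINCH, 15.2% in DOM against DOS and 2.4% in MEHP against DINCH. The part of these markers in the results below was not tested. Among 8 adipocyte markers none was above background on all 4 DMSO arrays, and Lep, Plin1, Cfd and Retn were above it on no array. Lipe, above background on 3 of 4 DMSO arrays, was called higher with DOM than with DMSO (0.75). In this bulk RNA, fewer cells of a kind and less RNA per cell cannot be told apart.

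The Angptl4 probe was well above background on all 23 arrays. Its median signal was 6.07 to 1007 times the local background, no spot was marked as an outlier, and the brightest reached 5.07% of the scanner's saturation value. The spread of 205.3 to 43678 in processed signal therefore lay within the measured range of the instrument.

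In the vehicle control the level of Angptl4 was 3.21, 4.30, 4.25 and 3.71 in replicates 1 to 4, a mean of 3.87 ± 0.51 (SD, n = 4). With MEHP it was 6.89, 7.27, 7.21 and 7.18 (7.14 ± 0.17, n = 4), and with DOM it was 6.74, 7.07, 6.91 and 6.80 (6.88 ± 0.14, n = 4). Every MEHP and every DOM array lay more than 2 log2 units above the highest DMSO array. With DINCH Angptl4 was lower, with levels of 0.00, 1.70, 1.85 and 1.03 (1.15 ± 0.84, n = 4), and its highest array was 1.36 below the lowest DMSO array. BDB gave 3.01, 4.30, 4.22 and 3.94 (3.87 ± 0.59, n = 4), a mean equal to that of DMSO to 2 decimals. DOS gave 4.21, 4.91 and 4.51 in replicates 1, 3 and 4 (4.54 ± 0.35, n = 3). Of the 3 DOS arrays, 2 lay above every DMSO array and the other fell inside the DMSO range.

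**Figure D1:**
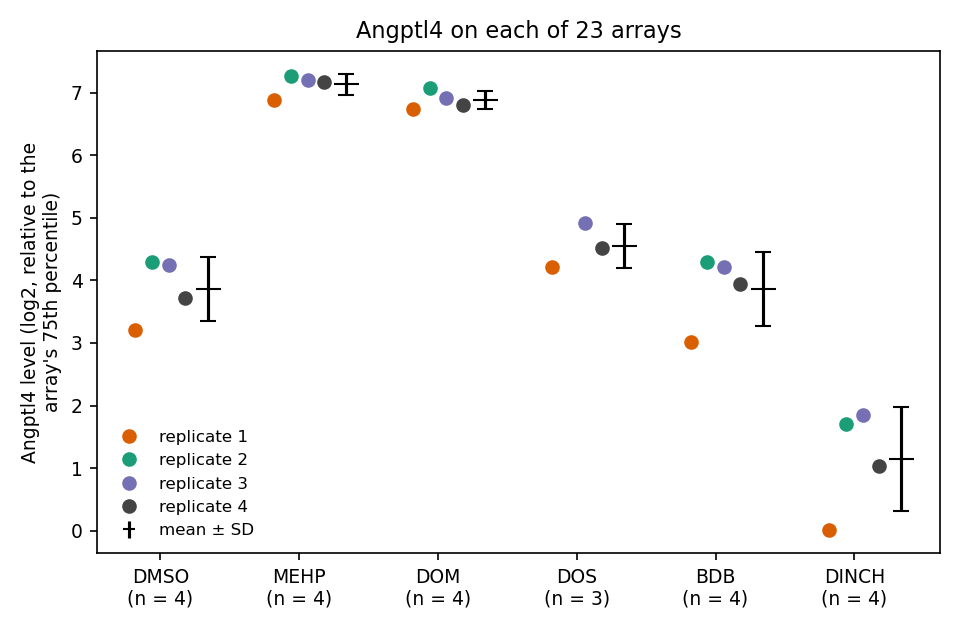
Level of Angptl4 on each of the 23 arrays (vertical axis, log2 relative to the 75th percentile of the array) by treatment group (horizontal axis). Points are single arrays coloured by replicate number, and the black bar beside each group is the mean with its SD. MEHP (7.14) and DOM (6.88) stand above DMSO (3.87), BDB (3.87) and DOS (4.54) lie at or near it, and DINCH (1.15) lies below, with replicate 1 the lowest point of each group.

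Relative to DMSO, the level was 3.27 higher with MEHP (SE 0.27, 9.64-fold) and 3.02 higher with DOM (SE 0.27, 8.08-fold). With DINCH it was 2.72 below DMSO on the log2 scale (difference -2.72, SE 0.49), which is 6.60-fold lower. The difference was -0.00 (SE 0.39) for BDB and 0.68 (SE 0.33, 1.60-fold) for DOS, and for both the arrays overlapped with those of DMSO. The processed signals show the same order before any scaling: 205.3 to 1053 with DINCH, 2963 to 6029 in DMSO and 34435 to 43678 with MEHP.

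Set among all probes tested, these differences were near the ends of the range for 3 of the compounds. Angptl4 had the 2nd highest difference of 24188 probes with MEHP, the 15th highest of 24348 with DOM and the 3rd lowest of 24001 with DINCH. With DOS it was the 260th highest of 24209. With BDB only a few probes differed less: it was 24256th of 24291 by size.

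The compounds were also compared with each other, 10 pairs in all, and in 8 pairs the arrays of one compound all lay above those of the other. The widest was MEHP against DINCH, at 5.99 (SE 0.43, 63.6-fold). This was the highest difference of all 23673 probes tested between these groups, and the lowest MEHP array was 5.04 above the highest DINCH array. MEHP, BDB and DINCH lay in the same slide rows, and within the 2 rows the MEHP to DINCH difference was 5.86 and 6.12. DOM against DINCH came to 5.74 (SE 0.43, 53.3-fold), the 2nd highest of 23857 probes. BDB and DOS, which were close to the vehicle, were also above DINCH, by 2.72 (SE 0.51) and 3.40 (SE 0.47).

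DOM and DOS share the octyl ester arms and differ in the double bond of the acid. Angptl4 was 2.34 higher with DOM (SE 0.22, 5.05-fold), and the lowest DOM array, 6.74, lay 1.83 above the highest DOS array, 4.91. Both groups shared slide rows with DMSO, and the DOM to DOS difference was 2.27 and 2.42 in the 2 rows and 2.09 and 2.70 on the 2 slides that held both.

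The 2 compounds with the highest levels could not be separated by their arrays. MEHP was above DOM by 0.25 (SE 0.11, 1.19-fold; 0.058 with quantile normalization), with 3 of 4 MEHP arrays above all DOM arrays and the ranges overlapping. Against the DOM array of the same number, each of the 4 MEHP arrays was higher, by 0.14 to 0.38. DOS and BDB differed by 0.68 (SE 0.36) and overlapped.

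The order of the means was therefore MEHP, DOM, DOS, DMSO, BDB and DINCH, and the neighbours MEHP and DOM, DOS and DMSO, and DMSO and BDB overlapped. The steps from DOM to DOS and from BDB to DINCH were wider than any spread within those groups.

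Angptl4 varied more between replicates than most probes did. Its SD within groups, pooled over the 6 groups, was 0.51 on the log2 scale, above that of 94.3% of 24931 detected probes, whose median was 0.20. The spread was uneven: the SD with DINCH (0.84) exceeded that of 98.5% of probes in that group, whereas the SD with DOM (0.14) exceeded that of 32.1%. The same was seen unlogged, where the coefficient of variation was 47.9% with DINCH, 32.6% in DMSO, 11.2% with MEHP and 10.1% with DOM.

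Part of this spread followed the replicate number shared with DMSO. Replicate 1 had the lowest Angptl4 level in all 6 groups, by 0.06 (DOM) to 1.03 (DINCH) below the next array. When each array was set against the DMSO array of its own number, the BDB differences ran from -0.20 to 0.22 with an SD of 0.17, against an SD of 0.59 for the BDB levels themselves. DOS was above its own DMSO array in 3 of 3 cases, by 0.66 to 1.00 (mean 0.82, SD 0.17). DINCH lay below its own DMSO array by 2.40 to 3.20 in 4 of 4 cases (differences of -3.20 to -2.40, SD 0.34, against 0.84 for the levels). MEHP was above its DMSO array by 2.96 to 3.68 and DOM by 2.66 to 3.53, and for both the largest of these differences belonged to replicate 1. For these compounds the SD of the differences was larger than that of the levels. It was 0.36 against 0.17 for MEHP and 0.39 against 0.14 for DOM. A difference also carries the spread of the DMSO levels (SD 0.51), and both SDs of differences were below it. The comparison with the SD of the levels therefore does not show that MEHP and DOM lacked the shared part. Within slides the differences from DMSO were 2.94 to 3.87 for MEHP, 2.64 to 3.70 for DOM, -3.20 to -2.27 for DINCH, -0.20 to 0.22 for BDB and 1.00 on both slides that held DOS.

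**Figure D2:**
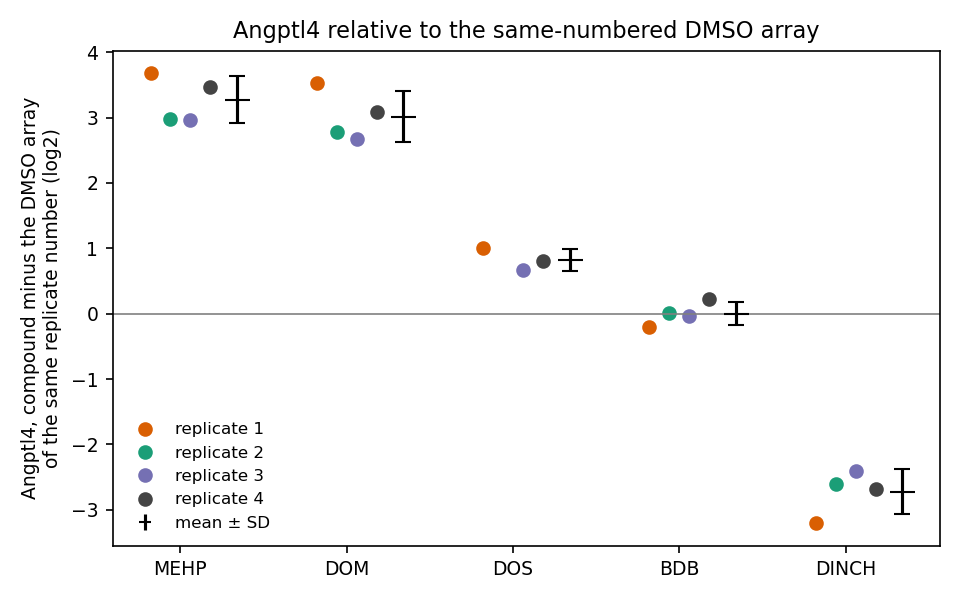
Difference in Angptl4 between each compound's array and the DMSO array of the same replicate number (vertical axis, log2) by compound (horizontal axis). Points are coloured by replicate number, the black bars are means with SD, and the grey line marks no difference. BDB lies on both sides of 0 between -0.20 and 0.22, all 3 DOS points lie between 0.66 and 1.00, and all 4 DINCH points lie at or below -2.40.

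The other genes were tested with limma in each comparison, without pairing by replicate number unless stated. Calls required a difference above 1.5-fold with a Benjamini-Hochberg adjusted p under 0.05, and genes with several probes are given by the brightest one unless stated. Whether the call of a named gene was kept or lost was followed on a single probe, the called one with the largest difference. The lists below come from textbook knowledge and leave out Angptl4. They were chosen with earlier results of these data known, so the shares called are not independent of these arrays.

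The first list held 54 genes known to be induced through PPARs, mostly enzymes and carriers of fatty acid oxidation. With MEHP, 6 of the 35 tested rose and none fell, where 1.13% of all 11948 genes tested were called higher and 0.552% lower. Their median was 0.22, against -0.01 for all genes tested. Pdk4, the kinase that turns off pyruvate dehydrogenase, had levels of -1.47, -1.47, -1.54 and -1.30 in DMSO and of 2.13, 2.18, 2.15 and 2.22 with MEHP. That is a rise of 3.61 (SE 0.08, limma adjusted p = 1.56e-07), with no overlap. Cpt1a, the gate of fatty acids into mitochondria, rose by 1.18 and 1.10 on its 2 probes (adjusted p = 0.0170 on the first, limma). The mitochondrial uncoupling protein genes Ucp2 (0.83) and Ucp3 (0.69) and the beta-oxidation enzyme gene Ech1 (0.70) also rose. The Cpt1a call was followed on its dimmer probe, with the rise of 1.18. It was lost there without MEHP replicate 2 or 4 or DMSO replicate 2 or 3. Its brighter probe was not followed. The Ech1 call was lost without MEHP replicate 2 or DMSO replicate 3.

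With DOM, 6 of 35 PPAR targets rose and 4 fell, where 9.9% of all 12005 genes were called higher and 10.6% lower (list median 0.26, all genes -0.03). Pdk4 rose by 3.46 (SE 0.23, limma adjusted p = 0.000108), to 2.26, 1.76, 1.43 and 2.60. Cpt1a rose by 2.00, Ucp2 by 1.01 and Ucp3 by 0.86, and the peroxisomal catalase gene Cat was called higher by 0.71 on 1 of its 2 probes, with 0.56 on the brighter one. Fgf21, which encodes a secreted metabolic hormone, fell by 2.80 (SE 0.18, limma adjusted p = 0.000106; -1.63 with normexp background correction, also called). Gk, glycerol kinase, fell by 1.28, the acyl-CoA thioesterase gene Acot2 by 0.93 and the acyl-CoA synthetase gene Acsl1 by 0.91. Leaving out DOM replicate 2 ended the call of Acot2.

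With DINCH, which left Angptl4 far below the vehicle, 1 of 35 PPAR targets was called higher and none lower, where 4.25% of all 11913 genes were called higher and 4.02% lower (list median 0.06, all genes -0.00). That gene was Pdk4, at 0.34, -0.62, -0.71 and 0.02, every array above every DMSO array. Its rise was 1.20 (SE 0.22, limma adjusted p = 0.0129). Pdk4 and Angptl4 therefore differed from DMSO in opposite directions with DINCH and in the same direction with MEHP and DOM. Cpt1a was -0.13 from DMSO (SE 0.14, limma adjusted p = 0.619), Ucp2 0.01 (SE 0.11, adjusted p = 0.957) and Ucp3 -0.11 (SE 0.11, adjusted p = 0.574).

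No listed gene was called with BDB or DOS, where 0% of all genes were called by limma in either comparison; 3494 probes with BDB and 1725 with DOS had an unadjusted p below 0.05. Pdk4 was nevertheless 1.02 above DMSO with DOS (SE 0.12, limma adjusted p = 0.339), its 3 arrays at -0.26, -0.65 and -0.35 all above the DMSO arrays. With BDB it was at -1.51, -1.82, -1.82 and -1.59, a difference of -0.24 (SE 0.10, adjusted p = 0.328).

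Between the compounds, PPAR targets were called in both DINCH comparisons. MEHP against DINCH had 6 of 35 higher and none lower, where 1.22% of all 11836 genes were higher and 1.18% lower (list median 0.07, all genes -0.01). The largest were Pdk4 (2.42), Cpt1a (1.23), Ucp2 (0.81), Ucp3 (0.80) and the carnitine carrier gene Slc25a20 (0.64). The call of Slc25a20 was lost in 6 of the 8 fits without 1 array and that of Ucp2 without MEHP replicate 2. DOM against DINCH had 6 higher and 3 lower of 35, where 11.8% of all 11888 genes were higher and 11.6% lower (list median 0.17, all genes -0.03). The largest of the higher genes were Pdk4 (2.26), Cpt1a (2.13), Ucp2 (0.99), Ucp3 (0.97) and Decr1, by 0.90 on 1 of its 2 probes and 0.04 on the brighter one. Decr1 was 0.30 and not called with normexp background correction. The lower genes were Fgf21 (-2.50), Gk (-1.62) and Acsl1 (-1.03 on the called probe with the largest difference, -0.84 on its brightest).

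DOM against DOS, the pair that differs in the double bond, had 5 of 35 PPAR targets higher and 2 lower, where 7.15% of all 11935 genes were higher and 8.06% lower (list median 0.27, all genes -0.01). Pdk4 was 2.43 higher with DOM (SE 0.26, limma adjusted p = 0.00184), Cpt1a 1.74, Ucp3 0.64, Ucp2 0.59 and Cat 0.68 on the called probe. Fgf21 was 2.66 lower with DOM (difference -2.66) and Gk 1.09 lower (difference -1.09). Of these, the calls of Ucp2, Ucp3 and Cat were each lost on leaving out at least DOS replicate 4. With the replicate number as a block, Ucp2 differed by 0.56 and was not called.

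The PPAR genes themselves were not called in any comparison with DMSO. Ppara had group means of -0.07 to 0.21 and Pparg of -2.40 to -2.16. Ppard lay between 2.08 and 2.61 on all 19 treated arrays and between 2.12 and 2.36 on 3 of the DMSO arrays, and DMSO replicate 4 was at -2.22. The Ppard differences from DMSO, which include that array, were 1.08 to 1.36, and without it the BDB difference was -0.03. All DOM arrays, at 2.41 to 2.61, lay above the 3 other DMSO arrays, and those of each other compound overlapped with them.

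**Figure D3:**
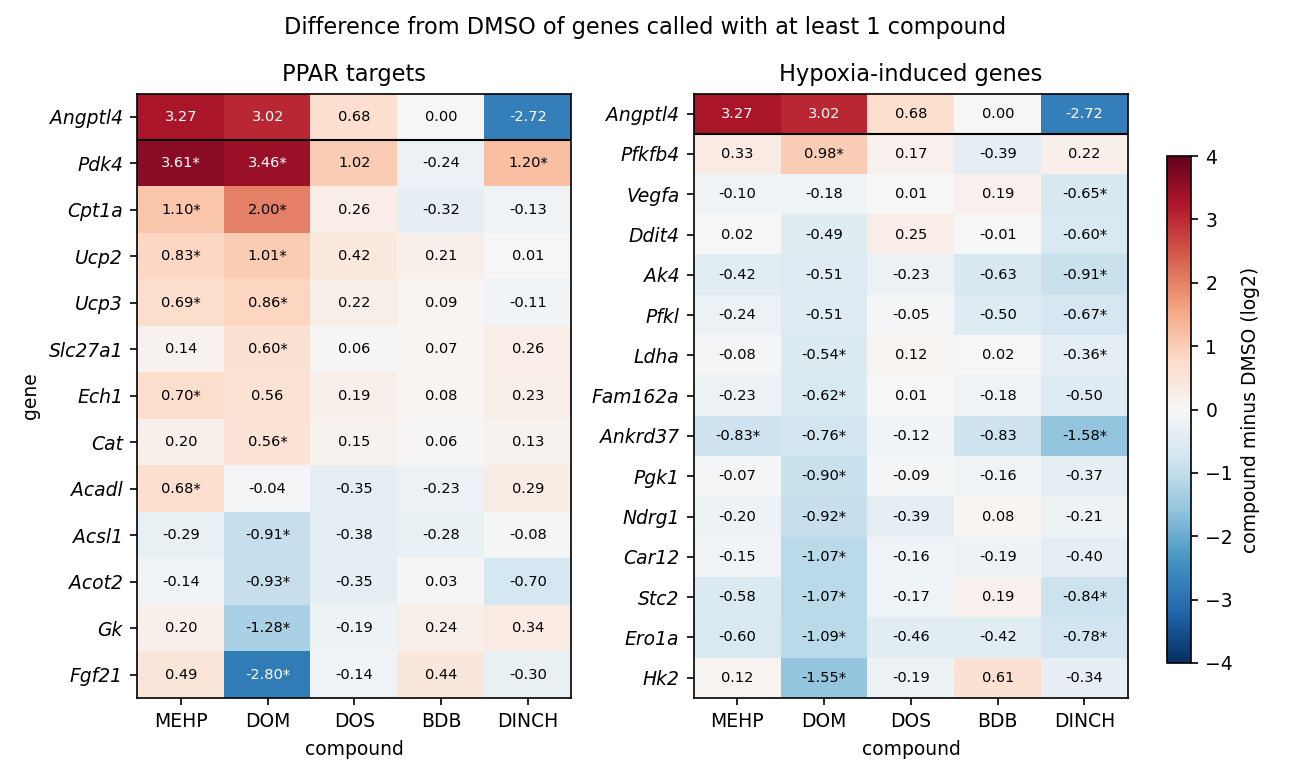
Difference from DMSO (log2, colour and number) of Angptl4, in the top row, and of the PPAR targets (left) and hypoxia-induced genes (right) called with at least 1 compound, with compounds as columns. Values are those of the brightest probe, and an asterisk marks a gene called in that comparison on this or another of its probes. Pdk4 is positive with MEHP, DOM and DINCH, whereas Angptl4 is negative with DINCH, and most of the hypoxia-induced genes shown are negative with DOM.

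Among 19 transcription factors, partners and coregulators known to act on Angptl4, all were tested with each compound against DMSO. With DINCH 3 were called higher and none lower, against the 4.25% of all genes. These were Ppargc1a, a PPAR coactivator (1.21, SE 0.20, limma adjusted p = 0.00848), Rxra, the PPAR dimer partner (0.92), and Arnt, the partner of hypoxia-inducible factors (0.70 on the called probe, 0.21 on the brightest). The brighter Rxra probe was at 0.06, -0.31, -0.42 and -0.32 with DINCH and at -1.10, -1.32, -1.26 and -1.01 in DMSO, and its other probe was not called, at -3.55 to -2.77 with DINCH and -3.04 to -2.64 in DMSO. The call of Arnt was lost in 7 of the 8 fits that left out 1 array, while those of Ppargc1a and Rxra were kept in all 8. With DOM, Arnt (0.67 on the called probe) and Smad3 (0.59), a mediator of TGF-beta signals, rose. The coactivator gene Ppargc1b was called lower, but it was well above background on 1 of 4 DOM arrays, and its difference of -1.08 was -0.29 and not called with normexp background correction. The call of Smad3 was lost without DMSO replicate 1 or DOM replicate 2 or 3. With MEHP none of the 19 was called. The list medians were 0.02 with MEHP, 0.07 with DINCH and 0.20 with DOM. In DOM against DINCH Smad3 (0.94) was called higher and Ppargc1a (-1.01) lower, and none was called in MEHP against DINCH or DOM against DOS.

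The second list of inducible genes held 36 targets of hypoxia-inducible factors, of which 33 were tested. With DINCH 8 fell and none rose, against 4.02% of all genes, and the list median was -0.24. Ankrd37 fell by 1.58 (SE 0.19, limma adjusted p = 0.00363), the adenylate kinase gene Ak4 by 0.91, the secreted glycoprotein gene Stc2 by 0.84, the endoplasmic reticulum oxidase gene Ero1a by 0.78 and the glycolytic gene Pfkl by 0.67. Those of Ankrd37 and Ak4 were called whichever array was left out. Stc2 was not called without DINCH replicate 1, 2 or 4 or DMSO replicate 3, Ero1a without DINCH replicate 1, 2 or 4 or DMSO replicate 1, 3 or 4, and Pfkl without DINCH replicate 1 or DMSO replicate 3 or 4.

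With DOM, where Angptl4 was 8.08-fold above DMSO, 9 of the 33 hypoxia-induced genes fell and 1 rose, against 10.6% and 9.9% of all genes (list median -0.44). The hexokinase gene Hk2 fell by 1.55 (SE 0.21, limma adjusted p = 0.00107), Ero1a by 1.09, Stc2 by 1.07, the carbonic anhydrase gene Car12 by 1.07 and Ndrg1 by 0.92. Pfkfb4, a regulator of glycolysis, rose by 0.98. With MEHP only Ankrd37 was called, lower by 0.83 (difference -0.83), and the list median was -0.08. The call was lost without MEHP replicate 4. In DOM against DOS 11 of 33 were lower and 1 higher, against 8.06% and 7.15% of all genes (list median -0.29), with Hk2 at -1.36, Car12 at -0.91, Stc2 at -0.90, Pgk1 at -0.81 and Ddit4 at -0.74, and with Pfkfb4 higher at 0.80. In MEHP against DINCH 1 was called, the stress gene Ddit4 (0.62), which was lost in 7 of 8 fits without 1 array (list median 0.17). DOM against DINCH had 5 of 33 higher, led by Pfkfb3 (1.04) and Ankrd37 (0.82), and 4 lower, led by Hk2 (-1.21) and Bhlhe40 (-0.78), against 11.8% and 11.6% of all genes, with a list median of -0.01. The Pfkfb3 call was lost without DINCH replicate 1 or 2 or DOM replicate 2 or 3.

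The third list held 22 genes induced by the glucocorticoid receptor. With DINCH 5 of 19 tested rose and 1 fell, where 4.25% of all genes were called higher and 4.02% lower (list median 0.19). The metallothionein genes Mt2 (2.16, SE 0.50, limma adjusted p = 0.0271) and Mt1 (1.52), the prostaglandin synthase gene Ptgds (1.38, above background on 2 of 4 DMSO arrays), the clock gene Per1 (1.18) and Cebpd (0.60) rose, and Errfi1 fell by 0.62. Of these, Per1 was the only one called whichever array was left out. The Mt2 call was lost without any 1 of the DMSO arrays or DINCH replicate 4, and Mt1 without DMSO replicate 1 or 3 or DINCH replicate 4. Ptgds was not called without DINCH replicate 1 or DMSO replicate 2 or with normexp background correction (0.45), and Cebpd and Errfi1 were lost in 6 and 7 of the 8 fits without 1 array. With MEHP 1 of 18 rose, against 1.13% of all genes: Per1 (0.76), a call lost without MEHP replicate 2 or 4. With DOM 3 of 18 rose, against 9.9% of all genes, namely Sgk1 (0.77), the receptor kinase gene Mertk (0.71) and Nfkbia (0.63), and 1 fell, against 10.6%. This was Anxa1, lower by 0.88 on 1 probe and 0.60 on the other. The Nfkbia call was lost without DMSO replicate 1 or DOM replicate 2 or 4, and that of Anxa1, on the probe lower by 0.88, without DOM replicate 2. Between compounds, MEHP against DINCH had 1 of 19 lower (Ptgds, -1.12; all genes 1.18%), DOM against DINCH 3 higher and 6 lower of 19 (all genes 11.8% and 11.6%), and DOM against DOS 1 higher of 18 (Mertk, 0.61) and 1 lower (Anxa1, -1.07 and -0.78 on its 2 probes), calls lost in 6 and 4 of the 7 fits without 1 array. With the replicate block the Mertk difference was 0.60 and no longer called.

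The relatives of Angptl4 and the genes of its enzyme formed a list of 31, of which 30 were on the array. Lpl, the lipase that ANGPTL4 inhibits, was lower with DINCH, as Angptl4 was. Its levels were 4.46, 5.38, 5.29 and 4.89 in DMSO and 3.85, 4.00, 4.16 and 3.79 with DINCH, a fall of 1.06 (SE 0.20, limma adjusted p = 0.0135). All 4 DINCH arrays lay below all DMSO arrays, and both probes were called. With MEHP, where Angptl4 was 9.64-fold higher, Lpl was at 4.04, 4.79, 4.75 and 4.43, a difference of -0.50 (SE 0.23, limma adjusted p = 0.335) that overlapped with DMSO. With DOM, BDB and DOS its means were 4.85, 5.03 and 5.10, against 5.01 in DMSO, and DOM was 0.90 above DINCH (SE 0.16, adjusted p = 0.00238, limma). As for Angptl4, replicate 1 had the lowest Lpl level of its group in DMSO, MEHP, BDB and DOS, but not in DINCH or DOM.

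**Figure D4:**
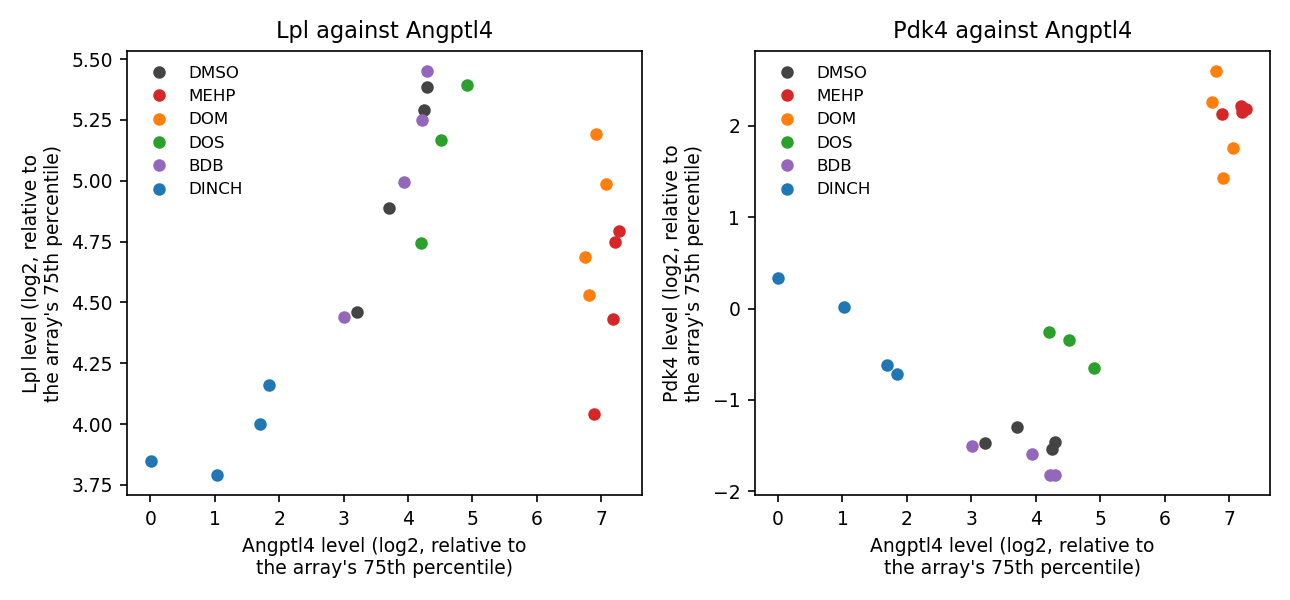
Level of Lpl (left) and of Pdk4 (right) on the vertical axis against the level of Angptl4 on the horizontal axis, both log2 relative to the 75th percentile of the array, for the 23 arrays coloured by group. The 4 DINCH arrays are the lowest for Angptl4, lie between 3.79 and 4.16 for Lpl, and lie above all 4 DMSO arrays for Pdk4.

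Of the other angiopoietin-like genes, Angptl6 was lower than in DMSO with both of the compounds at which Angptl4 was highest. It was at 3.59, 3.32, 3.24 and 3.62 in DMSO, at 2.66, 2.17, 1.96 and 2.63 with DOM and at 2.78, 2.53, 2.99 and 2.93 with MEHP. The fall was 1.09 with DOM (SE 0.18, limma adjusted p = 0.00226) and 0.64 with MEHP (SE 0.13, limma adjusted p = 0.0479). The MEHP call was lost without any 1 of the 8 arrays, while the DOM call was kept in every alternative run. With DINCH Angptl6 was at 4.07, 3.05, 3.08 and 3.34, a range that holds that of DMSO, and with DOS at 2.70, 2.73 and 2.77, all below DMSO (difference -0.71, SE 0.12, limma adjusted p = 0.359).

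Angptl7 was dim. It was well above background on all 4 DINCH and all 3 DOS arrays, on 2 of 4 DMSO and 1 of 4 BDB arrays, and on no MEHP or DOM array. Since it was not well above background with MEHP or DOM, its level there is only a bound: it was at least 2.97-fold higher with DINCH than with MEHP (limma adjusted p = 0.0459) and at least 2.23-fold higher with DOS than with DOM (limma adjusted p = 0.00646). The MEHP to DINCH call was lost without any 1 of the 8 arrays. Against DMSO, DINCH was higher by 1.29 (SE 0.36, limma adjusted p = 0.0516), a difference that was called with the replicate number as a block and was 0.43 with normexp background correction. Angptl2 had group means of -1.53 to -0.63 and Angptl8 of -1.47 to -0.92, and neither was called. Angptl1 was above background on no array.

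Across the list, 1 of 19 tested genes was called with MEHP, lower, against 0.552% of all genes (list median -0.13). With DINCH 1 was higher and 2 lower of 20, against 4.25% and 4.02% (-0.04), and with DOM 3 were higher and 2 lower of 18, against 9.9% and 10.6% (0.04). With DINCH the endothelial lipase gene Lipg, above background on 3 of 4 DMSO arrays, rose by 1.07 and the lipoprotein receptor gene Vldlr fell by 1.09 on 1 of its 2 probes, with -0.46 on the brighter one. Both calls were lost in 6 of the 8 fits without 1 array, and Lipg was 0.33 with normexp background correction. With DOM the lipoprotein receptor gene Lrp1 (0.68), the lipase maturation factor gene Lmf1 (0.61) and Angpt2 (0.90) rose, and Apoe fell by 0.69. The Lmf1 call was lost without DMSO replicate 1 or DOM replicate 4. DOM against DINCH had 5 higher (Angpt4, Lrp1, Lpl, Lmf1 and Vldlr) and 2 lower (Angptl6 and Angptl7) of 20, against 11.8% and 11.6% of all genes. The calls of Angpt4, Vldlr and Lmf1 were lost in 5, 6 and 2 of the 8 fits without 1 array. For Vldlr the call was on the dimmer of its 2 probes (0.63). Its brighter probe was not higher with DOM, at 5.60 to 5.97, than with DINCH, at 5.62 to 6.05. DOM against DOS had Lmf1 higher (0.61) and Angptl7 lower of 19, against 7.15% and 8.06% of all genes. The Lmf1 call was lost in 4 of the 7 fits without 1 array and with the replicate block (0.58).

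Over the 5 lists, 162 genes were listed. With MEHP 9 of 124 tested were called (7.26%, all genes 1.68%), with DINCH 21 of 126 (16.7%, all genes 8.26%) and with DOM 32 of 123 (26.0%, all genes 20.5%). The counts were 9 of 124 for MEHP against DINCH (7.26%, all genes 2.4%), 37 of 125 for DOM against DINCH (29.6%, all genes 23.3%) and 23 of 123 for DOM against DOS (18.7%, all genes 15.2%). Without the filter on dim probes the listed genes called were 1 with MEHP and 2 with DINCH. With normexp background correction Cat, Apoe, Mertk, Arnt and Ppargc1b were no longer called for DOM against DMSO.

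The genes whose level over the 23 arrays was most like that of Angptl4 were sought among 12116 genes by Pearson's r. The arrays share the 6 groups, the 3 slides and the scaling, so r is a description. The highest values belonged to Erc2 (0.91), Ucp3 (0.90), Prtg (0.87), Lpcat3 (0.87), Chst3 (0.86), Rnf145 (0.85), Slc25a20 (0.85) and Gramd4 (0.85). All 8 were also among the 100 highest by Spearman's rho and among the 100 highest over the 6 group means. In all, 22 genes had r above 0.8 and 13 had r below -0.8.

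None of the 8 had a range as wide as that of Angptl4. Erc2, a presynaptic scaffold gene, had means of -0.35 in DMSO, 1.10 with DOM, 0.71 with MEHP and -0.69 with DINCH. A second Erc2 probe stayed between -1.35 and -0.64 on all 23 arrays. Prtg, which had the highest r over the group means of the 8 (0.98), was -2.72 in DMSO, -1.84 with DOM, -1.90 with MEHP and -3.33 with DINCH. For Rnf145, a ubiquitin ligase gene, the larger move was downwards, at -0.94 from DMSO with DINCH and 0.35 with MEHP. Gramd4 was -0.89 from DMSO with DINCH and 0.08 with MEHP.

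The lowest r belonged to Kyat3, an aminotransferase gene (-0.92), followed by Rtp4 (-0.87), Gbp3 (-0.85), Xaf1 (-0.85) and Rsad2 (-0.85), 4 genes known as interferon-induced. Rtp4 was 1.22 above DMSO with DINCH and -1.10 from it with DOM, and Rsad2 was 0.45 above with DINCH and -1.63 with DOM. Kyat3 was 0.25 above DMSO with DINCH, -0.31 with MEHP and -0.36 with DOM.

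**Figure D5:**
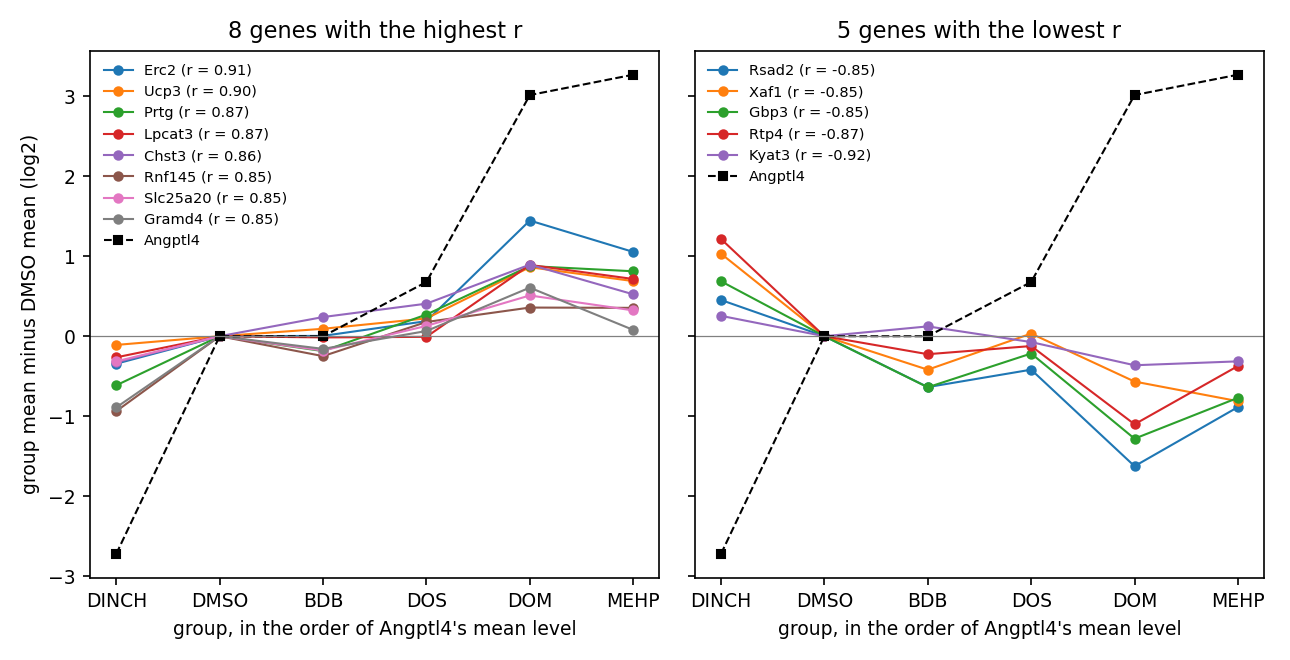
Group mean minus DMSO mean (vertical axis, log2) of the 8 genes with the highest r with Angptl4 over 23 arrays (left) and of the 5 with the lowest (right), with the groups ordered along the horizontal axis by the mean level of Angptl4 (black dashed line). Angptl4 runs from -2.72 to 3.27, wider than any of the 13 genes.

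Within groups a different set of genes went with Angptl4. After the group mean was taken off each array, the highest r was that of Pmepa1, a TGF-beta-induced gene (0.95), followed by Il6ra (0.92), Cpa6 (0.90), Bbs1 (0.89) and Ptpn7 (0.89). The lowest were Hoxb6 (-0.90), Mrpl47 (-0.89) and Stx7 (-0.89). Pmepa1 was at 1.52, 2.62, 2.58 and 2.24 in DMSO and at -0.12, 1.33, 1.47 and 0.75 with DINCH. Like Angptl4, it was lowest on replicate 1 in all 6 groups, though in DOM only by 2.71 against 2.72 on replicate 4. Its second, dimmer probe was lowest in DOM on replicate 4, at 1.81 against 2.04 on replicate 1. Between groups the genes parted, since Pmepa1 was -0.87 from DMSO with MEHP and Angptl4 was 3.27 above it.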

How the data were processed

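The authors scanned 23 one-colour Agilent mouse arrays and extracted them with Agilent Feature Extraction. The deposited intensity of a spot is linear, background-subtracted and detrended, with no scaling between arrays. Log2 values were deposited too, set to the 75th percentile of each array and then centred per probe. These correlated with their own array at 0.9996 or more and with others at 0.407 or less, and served as an alternative. One further DOS replicate was left out by the authors for high background and was not analysed here.

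The log2 of the processed intensity (floor 1) was set relative to the 75th percentile over 59305 non-control spots, without outlier spots (102 to 187 per array). RefSeq accessions named 26582 of 55681 probes with 20145 symbols, and 29099 probes had no name. Tested probes had to exceed background clearly, and reach the 20th percentile, on all arrays of 1 of the 2 groups. They were fitted with limma 3.58.1 in R 4.3.3, on the arrays of those groups, with Benjamini-Hochberg adjustment over tested probes. Python 3.11.15 and matplotlib 3.10.9 did the rest. The number of arrays limits the precision, since there is no read depth.

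Angptl4 and the gene lists were chosen with earlier results of these data known. Named genes are the called members of each list, at most the 5 largest in each direction, the angiopoietin-like genes, Lpl and the 3 PPAR genes, and the genes with the most and least similar levels. Some genes that meet this rule are not reported here. Samples were grouped by their labels. Deviations of same-numbered arrays from group means correlated at over 0.1 in every pair of some comparisons. These were DINCH (0.17 to 0.50), BDB (0.25 to 0.43) and DOS (0.20 to 0.45) against DMSO and DOM against DOS (0.10 to 0.40). On that basis, not from the labels, a fit with the replicate number as a block is given as their paired alternative. The limma values and calls reported were fitted without pairing unless stated.

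On simulated data with 200 probes changed by 1 log2 unit, the share recovered was 63.5% for DOM, 70% for DOS, 75% for both BDB and DINCH and 78% for MEHP, and each comparison made 1 to 7 false calls. The alternatives are quantile normalization, normexp background correction (offset 50), other detection filters, the percentile over bright spots, the deposited log2 values, slide or replicate blocks, all groups in 1 fit, a variance trend and leaving out arrays.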

Additional observations from a re-analysis of the deposited data

Results flagged for a closer look

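In 399 groups of 4 arrays, over 80 named genes, 19 groups (4.76%) had 1 array far from the other 3, and chance alone picks out about 1 group in 20. None of them was a group of Angptl4. In DMSO, the array apart was replicate 1 for Cebpd (3.06, high), Bhlhe40 (1.39, low) and Bbs1 (-3.16, low), replicate 3 for Fgf21 (-0.14, high) and Gbp3 (-1.43, high), and replicate 4 for Pfkfb4 (-0.14, high), Rnf145 (0.56, low) and Ppard (-2.22, low). In BDB it was replicate 1 for Pfkfb3 (0.16, low), Bbs1 (-3.82, low), Ptpn7 (-3.33, low) and Stx7 (3.57, high), replicate 2 for Ppara (0.15, low) and replicate 4 for Ppargc1b (-5.24, low). In DINCH it was replicate 1 for Ppargc1a (-1.25, high) and replicate 4 for Slc25a20 (0.16, high). In DOM it was replicate 1 for Ppara (-0.56, low) and replicate 2 for Hk2 (-0.64, low), and in MEHP it was replicate 4 for Rxra (-0.46, high). For Ppard the other DMSO arrays were at 2.12 to 2.36, and the cause was not tested.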

How the results depend on the processing

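For Angptl4, 234 of 235 values under the alternatives stayed within 1 SD of the value reported. The exception was MEHP minus DOM, which was 0.058 with quantile normalization against 0.25. Among these values are fits without 1 array, which can hardly move a group mean that far. No Angptl4 spot was marked as an outlier, so keeping outlier spots could not move its level either. The count therefore says little for these settings. Over all alternatives the difference from DMSO with DOM was 2.80 to 3.21, with MEHP 3.05 to 3.42, with DOS 0.46 to 1.00, with BDB -0.22 to 0.28 and with DINCH -2.96 to -2.34. Without replicate 1 of every group, an alternative chosen after the data were seen, these were 2.84, 3.13, 0.63, 0.07 and -2.56.

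Paired by replicate number (replicate block), DOS minus DMSO was 0.82 and DOM minus DOS 2.28, the listed genes called were 24 with DINCH, 0 with BDB, 0 with DOS and 23 for DOM against DOS, and no count moved by over 1.5 times. Among named genes of these pairs, the block ended the calls of Ucp2, Lmf1 and Mertk for DOM against DOS and added that of Angptl7 with DINCH. Where the numbers were not taken as pairs, the block gave 8 listed genes with MEHP, 33 with DOM, 6 for MEHP against DINCH and 37 for DOM against DINCH.

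The number of listed genes called depended on the filter. Without a filter on dim probes it was 1 with MEHP (9 reported), 2 with DINCH (21), 2 for MEHP against DINCH (9) and 4 for DOM against DOS (23), and with detection on 1 array it was 8 with DINCH and 5 for MEHP against DINCH. With BDB (0) it was 2 with normexp, 5 with a slide block, 6 with all 6 groups fitted together and 5 with a variance trend. Leaving out 1 array gave 9 to 21 with DINCH (fewest without DMSO replicate 3, and 13 or fewer also without DMSO replicate 1 or 4 or DINCH replicate 1 or 4), 0 to 1 with DOS (1 without DOS replicate 3) and 5 to 10 for MEHP against DINCH (5 without any MEHP array or DINCH replicate 2). Ppard with BDB was -0.031 without DMSO replicate 4. Of 113 named calls, each followed on 1 probe, 47 were kept in every alternative run, 66 were lost in at least 1, and none changed sign. The causes were not tested, apart from the fewer samples or more probes that these settings entail.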
